A study of Mus musculus with 21 samples.

Results

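The response to CRISPR editing of Prrx1 was measured in mouse embryonic fibroblasts (MEF) by RNA-seq of 3 sgPrrx1 cultures and 3 WT cultures. All genes of the MEF count table were considered, and 13372 of the 24532 listed genes passed a filter on low counts and were tested. These 6 libraries belong to a set of 21 mouse fibroblast libraries, which also holds wound-healing fibroblasts and MMTV-CAF, the fibroblasts of MMTV-PyMT breast tumours. The sgPrrx1 cells carried Cas9 and a guide RNA against the first exon of Prrx1, and the genotype label of the WT cultures is WT_PRRX1. The MEF came from embryos of embryonic day 10 to 13 with the strain label C57BL/6, and cells of both groups had been immortalized by overexpression of the viral genes that the labels give as HPV E6/E. A non-targeting guide, SgNS, is named as the control of the edited fibroblasts in general, but whether the WT MEF carried it is not stated, so that effects of Cas9 and of the vector cannot be told apart here from those of the edit. Whether the edited cells were 1 clone or a pool is not stated either, nor whether the 3 libraries of a group were separate derivations, and the p-values therefore measure only the spread between these libraries, which may be technical. A further MEF group, from embryos of 129S-Prrx1tm1Jfm/Mmmh mutant mice (genotype label KI_PRRX1, n = 3), shares the same 3 WT libraries and was used only where the edited and mutant cells are set side by side.

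Prrx1 encodes a homeodomain transcription factor of the embryonic limb, face and other mesenchyme, and its close paralog Prrx2 is expressed in overlapping regions. Fibroblasts build the extracellular matrix from collagens, proteoglycans, elastic fibres and adhesive glycoproteins, and remodel it with proteases. An activated fibroblast, or myofibroblast, adds a contractile apparatus of smooth muscle actin and responds to TGF-beta. Cas9 cuts the coding sequence and repair leaves small insertions or deletions, so an edited gene can still give a transcript that is counted, and the protein was not analysed here.

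Depth was similar in all 6 libraries, at 72754401 to 88418420 counts assigned to genes. Levels are given as CPM, counts scaled to a common library size by TMM. The values of the 3 cultures of a group are listed in the order of their replicate numbers, and means are given ± SD (n = 3). A gene was called when its Benjamini-Hochberg adjusted p in edgeR's quasi-likelihood test was below 0.05. Pearson's r across genes between pairs of libraries, on log2 CPM, was 0.98 to 0.99 within each group and 0.94 to 0.96 between the groups. The fibroblast identity of both groups was read from 15 marker genes. Their summed level was 15291 to 16072 CPM in WT and 11702 to 13736 CPM in sgPrrx1 cultures. Col1a1, Col1a2, Col3a1, Fn1 and Vim were all abundant, while 3 of the 15, Lum, Fap and Mfap5, never reached 1 CPM.

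Prrx1 mRNA was lower in the edited cells but far from absent. WT cultures had 182, 158 and 174 CPM and sgPrrx1 cultures had 118, 89.2 and 132 CPM (log2 fold change −0.60, SE 0.14, adjusted p = 0.0145) for this gene on chromosome 1 of GRCm38 (bases 163245119 to 163315145). Every sgPrrx1 culture lay below every WT culture, at 68.7, 52.1 and 77.1% of the WT mean. Such separation was common, found in 7493 of the 13372 tested genes (3845 lower and 3648 higher), so by itself it sets no gene apart. The deposited counts behind these levels were 13246, 11554 and 15975 in WT and 8491, 6424 and 10893 in sgPrrx1 libraries. Prrx2 fell as well, from 98.8, 102 and 100.1 to 84.4, 75.9 and 70.8 CPM (log2 fold change −0.38, SE 0.08, adjusted p = 0.00914), without overlap of the groups. The nearest tested neighbours of Prrx1 on chromosome 1, Gorab and Kifap3, had log2 fold changes of 0.21 and 0.14 and were not called. On the other side Prrc2c, at 0.12, was not called either. Further out, Dnm3os was lower (−1.37). Vamp4 (0.37), Scyl3 (0.60), BC055324 (0.68) and Mettl18 (1.02) were higher, and Dnm3 and Pigc were not called. The Y-linked genes Kdm5d, Ddx3y, Eif2s3y and Uty were counted in all 6 libraries and 0 of these 4 was called by edgeR (1 at an unadjusted p below 0.05, 0 by DESeq2). Kdm5d was called lower with a replicate block (log2 fold change −0.25, adjusted p = 0.0435) and under upper-quartile scaling (−0.28, adjusted p = 0.0434).

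**Figure D1:**
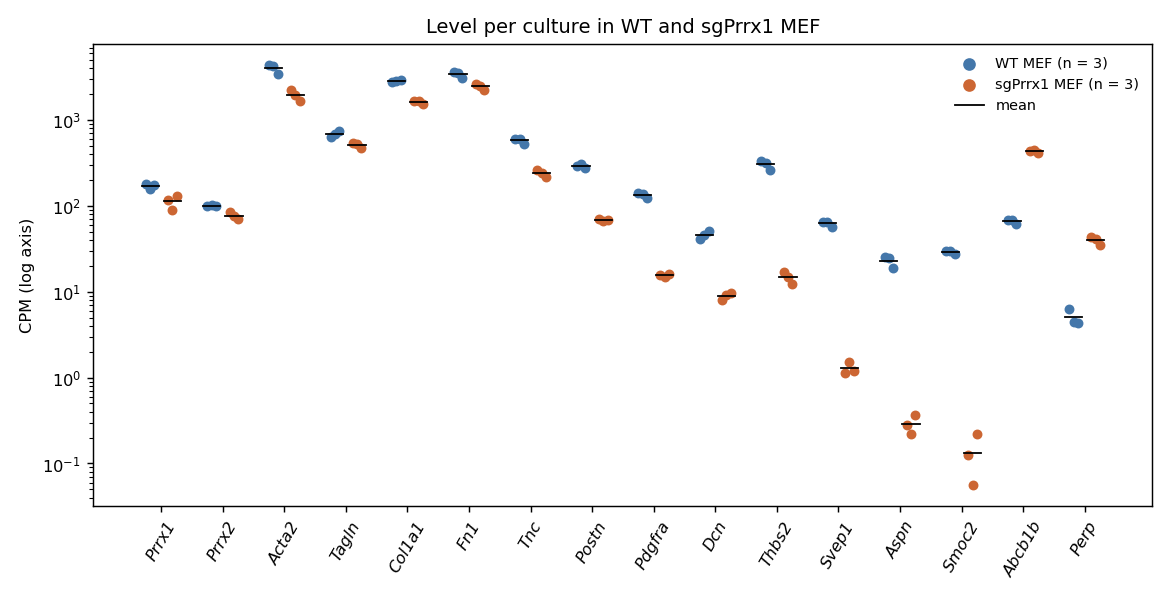
CPM (log axis) of 16 genes in each WT (blue) and sgPrrx1 (orange) culture, n = 3 each, with the mean as a bar. Prrx1 moves from a mean (± SD) of 171 ± 12.3 to 113 ± 21.8 CPM, whereas Smoc2 falls from 29.1 ± 1.59 to 0.133 ± 0.0816 CPM and Abcb1b rises from 66.2 ± 4.23 to 433 ± 14.2 CPM.

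Editing was accompanied by a broad change in the transcriptome, with its large effects mostly in the downward direction. Of the genes tested, 3051 were lower (22.8%) and 2713 were higher (20.3%) in sgPrrx1 cultures. With a change of at least 2-fold added to the rule, 1200 genes were lower (8.97%) and 211 were higher (1.58%). At 4-fold or more the counts were 553 and 47. The median log2 fold change over all tested genes was 0.00, and the biological coefficient of variation was 15.3%. Falls of at least 2-fold also outnumbered rises among abundant genes: 317 genes with a mean of at least 10 CPM fell by at least 2-fold and 88 rose. Leaving out WT replicate 2 or sgPrrx1 replicate 2 lowered the number of higher genes to 1586 and 1679, and leaving out WT replicate 3 raised the number higher by at least 2-fold to 380. In whole cultures, fewer cells of a kind and less RNA per cell cannot be told apart.

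**Figure D2:**
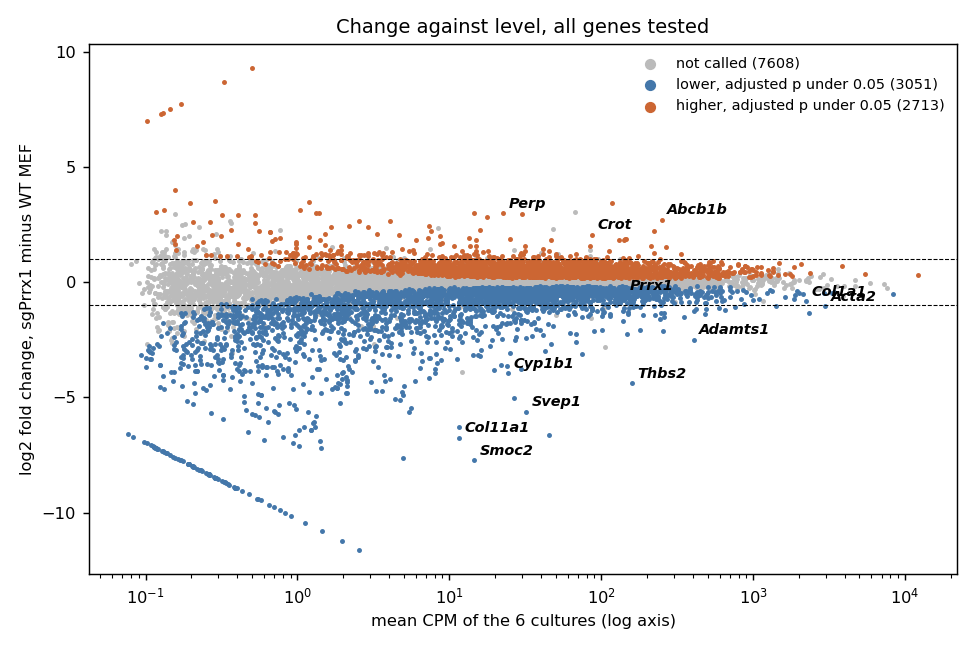
Log2 fold change (sgPrrx1 minus WT) against the mean CPM of the 6 cultures (log axis), one point per tested gene, blue for the 3051 called lower, orange for the 2713 called higher and grey for the rest. Dashed lines mark 2-fold. Points on the straight lower edge, and the few on the upper one, are genes with no count in one of the groups, whose fitted value depends on the prior count.

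The transcription factors that mark mesenchyme moved in both directions. Of 18 factors that the study had named as core factors of MEF, 7 were lower (38.9%) and 4 were higher (22.2%), all by less than 2-fold. Over all tested genes the shares were 22.8% and 20.3%. The study chose that list on WT MEF, so it is not independent evidence of a direction. Hes1, a target of Notch signalling, fell from 12.1 ± 0.940 to 6.25 ± 0.232 CPM (log2 fold change −0.95, adjusted p = 3.88e-04). Tead4, which acts with YAP, rose from 18.1, 19.7 and 22.2 to 36.9, 39.8 and 35.96 CPM (log2 fold change 0.91, SE 0.09, adjusted p = 4.89e-04), and the groups did not overlap. Sox4 (0.53) and Klf4 (0.44) also rose.

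Among 32 tested factors of limb and mesenchymal patterning, 9 were lower (28.1%) and 5 were higher (15.6%), near the 22.8% and 20.3% of all genes. The count of higher factors was 2 without WT replicate 1 or 2, 3 without sgPrrx1 replicate 2 or 3 and 9 without WT replicate 3. Alx4, a homeodomain factor of limb and skull patterning, had 3.41, 3.01 and 3.58 CPM in WT and 0.402, 0.361 and 0.460 CPM in sgPrrx1 cultures (log2 fold change −3.02, SE 0.17, adjusted p = 4.09e-05). Meis1, a factor of the proximal limb, fell from 63.2 ± 4.58 to 32.2 ± 1.65 CPM (log2 fold change −0.97, adjusted p = 1.86e-04), and Snai1, known from epithelial-mesenchymal transition, from 38.4 ± 0.982 to 22.7 ± 2.80 CPM (log2 fold change −0.76, adjusted p = 0.00130). Sox9, the factor of chondrocyte commitment, rose from 16.5 ± 1.22 to 32.4 ± 0.831 CPM (log2 fold change 0.98, adjusted p = 1.68e-04). Of 31 tested Hox genes, 6 were lower (19.4%) and 5 higher (16.1%), shares below those of all genes, and leaving out WT replicate 3 raised the higher count to 8. Hoxc8 was the most abundant of those that fell, at 61.6, 53.4 and 45.6 CPM in WT and 26.7, 28.5 and 29.02 CPM in sgPrrx1 cultures (log2 fold change −0.93, SE 0.11, adjusted p = 9.83e-04), while Hoxd9 rose from 6.11 ± 1.55 to 12.5 ± 1.72 CPM (log2 fold change 1.03, adjusted p = 0.00573).

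The markers used to recognise fibroblasts were mostly lower. Of 13 tested, 11 fell (84.6%), 2 of them by at least 2-fold, and 1 rose. Pdgfra, the receptor that defines many embryonic mesenchymal cells, had 142, 138 and 122 CPM in WT and 15.9, 14.9 and 15.98 CPM in sgPrrx1 cultures, an 8.61-fold fall (log2 fold change −3.11, SE 0.09, adjusted p = 4.25e-06). All sgPrrx1 values lay close together and far below the WT values. The related receptor Pdgfrb fell less, from 239 ± 15.2 to 134 ± 15.4 CPM (log2 fold change −0.83, adjusted p = 8.45e-04). Thy1 (−0.59) and S100a4, also called FSP1 (−0.59), fell by about the median of the list, −0.59. Vim, the intermediate filament vimentin, was the member called higher (log2 fold change 0.34, adjusted p = 0.0417), but this call was lost in 8 of the 14 alternatives, among them the removal of any culture except sgPrrx1 replicate 3.

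Genes of the collagen matrix fell. Of 10 tested fibrillar collagen genes, 8 were lower (80%) and 0 were higher by edgeR (also 0 at an unadjusted p below 0.05 and 0 by DESeq2), with a median log2 fold change of −0.77. Col1a1, one chain of type I collagen, had 2785, 2863 and 2941 CPM in WT and 1651, 1653 and 1542 CPM in sgPrrx1 cultures (log2 fold change −0.83, SE 0.07, adjusted p = 2.28e-04). Col1a2, the other chain, had 2324, 2309.7 and 2344 and 1455, 1406 and 1366 CPM (log2 fold change −0.72, SE 0.07, adjusted p = 2.86e-04). Col3a1, the chain of type III collagen, had 1032, 1102 and 1303 and 576, 594 and 604 CPM (log2 fold change −0.95, SE 0.10, adjusted p = 4.47e-04). For each of these the groups were separate and the fall was smaller than 2-fold. Col11a1, a minor fibril chain best known from cartilage, fell much further, from 20.8, 23.3 and 24.5 to 0.194, 0.111 and 0.315 CPM (log2 fold change −6.75, SE 0.27, adjusted p = 1.05e-05). Summed over the 11 fibrillar genes listed, the level was 7985 to 8576 CPM in WT and 4897 to 5024 CPM in sgPrrx1 cultures.

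Of 20 other collagen genes, 12 were lower (60%), 9 of them by at least 2-fold, and 1 was higher. Type VI collagen, the beaded filament network around cells, showed unequal change of its chains: Col6a1 fell from 583 ± 39.6 to 257 ± 18.4 CPM (log2 fold change −1.18, adjusted p = 9.35e-05) and Col6a2 from 382 ± 74.3 to 134 ± 15.2 CPM (log2 fold change −1.51, adjusted p = 4.82e-04), while Col6a3 was not called. Col12a1, a collagen that coats fibrils, fell from 164 ± 6.23 to 39.4 ± 1.69 CPM (log2 fold change −2.06, adjusted p = 7.40e-06). Col4a1, a chain of basement membrane collagen, went the other way, with 1017, 1040.0 and 1138 CPM in WT and 1599, 1664 and 1684 CPM in sgPrrx1 cultures (log2 fold change 0.63, SE 0.07, adjusted p = 7.70e-04). The enzymes and chaperones that fold, cut and crosslink collagen were also lower, 18 of 27 tested (66.7%) against 1 higher, or 2 higher without WT replicate 1 or 3 or without sgPrrx1 replicate 3. Pcolce, the enhancer of the procollagen C-proteinase, fell from 1028 ± 46.98 to 489 ± 41.1 CPM (log2 fold change −1.07, adjusted p = 1.41e-04). The proteinase gene Tll1 fell from 53.8 ± 9.87 to 10.1 ± 0.219 CPM (log2 fold change −2.42, adjusted p = 4.07e-05) and the prolyl hydroxylase gene P4ha3 from 32.7 ± 6.03 to 7.94 ± 1.04 CPM (log2 fold change −2.04, adjusted p = 1.73e-04). The crosslinking enzymes Lox (−0.64) and Loxl1 (−0.90) fell by less than 2-fold.

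Small leucine-rich proteoglycans, which bind collagen fibrils and set their diameter, had the lowest median log2 fold change of the matrix lists, −3.07, with 8 of 10 tested genes lower (80%), each by at least 2-fold. Aspn (asporin) had 25.1, 24.8 and 18.7 CPM in WT and 0.277, 0.222 and 0.363 CPM in sgPrrx1 cultures, a 79.6-fold fall (log2 fold change −6.29, SE 0.21, adjusted p = 7.40e-06). Ogn (osteoglycin) fell from 55.6, 58.5 and 51.2 to 3.82, 3.66 and 4.62 CPM (log2 fold change −3.77, SE 0.12, adjusted p = 5.55e-06). Dcn (decorin) fell from 41.6, 45.6 and 51.3 to 7.98, 9.17 and 9.78 CPM (log2 fold change −2.36, SE 0.12, adjusted p = 2.39e-05). In all these genes the sgPrrx1 cultures sat in a narrow band below WT. Bgn (biglycan), at 1909 ± 72.6 CPM by far the most abundant in WT, fell to 917 ± 7.54 CPM (log2 fold change −1.06, adjusted p = 5.34e-05). Podnl1 was the member that rose, from 9.23 ± 1.21 to 21.1 ± 2.33 CPM (log2 fold change 1.19, adjusted p = 5.20e-04).

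Elastic fibre and microfibril genes were lower in 14 of 19 tested (73.7%), 8 of them by at least 2-fold, and 1 was higher. Fbln7, encoding a fibulin, had 5.18, 5.38 and 4.75 CPM in WT and no count in any sgPrrx1 library, which is at least 129-fold lower against a floor of 3 counts per library. Eln, the gene of elastin itself, had 2.20, 1.68 and 1.57 CPM in WT and no count in any sgPrrx1 library, at least 45.7-fold lower by the same floor. Fbln5, a fibulin needed for elastic fibre assembly, fell from 211 ± 21.3 to 66.3 ± 6.94 CPM (log2 fold change −1.67, adjusted p = 6.80e-05). Fbn1, the main fibrillin, fell only from 261 ± 20.6 to 176 ± 14.4 CPM (log2 fold change −0.57, adjusted p = 0.00283). Efemp1 was the member that rose (log2 fold change 0.95, adjusted p = 9.60e-04).

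Matricellular and adhesive glycoproteins, which sit in the matrix and signal to cells, had 23 of 32 tested genes lower (71.9%), 17 by at least 2-fold, and 1 higher. Thbs2 (thrombospondin 2) had 336, 318 and 262 CPM in WT and 16.9, 14.9 and 12.3 CPM in sgPrrx1 cultures, a 20.8-fold fall (log2 fold change −4.38, SE 0.16, adjusted p = 8.13e-06). Postn (periostin) fell from 289, 304 and 277 to 69.6, 67.5 and 68.8 CPM (log2 fold change −2.08, SE 0.06, adjusted p = 5.55e-06), and Tnc (tenascin C) from 609, 595 and 534 to 262, 242 and 219.6 CPM (log2 fold change −1.26, SE 0.09, adjusted p = 9.65e-05). The WT and sgPrrx1 ranges of these genes were far apart. Fn1 (fibronectin) changed little in comparison, from 3603, 3521 and 3089.6 to 2642, 2489.9 and 2259 CPM (log2 fold change −0.47, SE 0.10, adjusted p = 0.00871), still without overlap. Smoc2, a calcium-binding matrix protein, fell from 29.1 ± 1.59 to 0.133 ± 0.0816 CPM, the largest fitted fall among called genes with at least 10 CPM in either group (log2 fold change −7.72, adjusted p = 8.13e-06). Of the family of connective tissue growth factor, CTGF fell from 328 ± 33.7 to 121 ± 12.7 CPM (log2 fold change −1.44, adjusted p = 1.25e-04) and NOV from 117 ± 6.75 to 19.3 ± 0.702 CPM (log2 fold change −2.60, adjusted p = 4.37e-06). Nid1, a basement membrane linker, rose from 1062 ± 71.1 to 1892 ± 165 CPM (log2 fold change 0.83, adjusted p = 6.51e-04), while its relative Nid2 fell from 372 ± 29.2 to 146 ± 15.2 CPM (log2 fold change −1.35, adjusted p = 1.11e-04).

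Proteases that remodel the matrix and their inhibitors fell together: 18 of 27 tested genes were lower (66.7%) and 2 were higher, or 1 without WT replicate 1 or 2 or without sgPrrx1 replicate 2 or 3. Adamts1, a versican-cleaving protease, had 750.4, 706 and 617 CPM in WT and 127, 124 and 115 CPM in sgPrrx1 cultures (log2 fold change −2.50, SE 0.09, adjusted p = 8.60e-06). Adamts5, an aggrecanase, fell from 413 ± 40.02 to 93.5 ± 6.07 CPM (log2 fold change −2.14, adjusted p = 1.51e-05). The plasminogen activator gene Plau fell from 56.3 ± 4.35 to 16.3 ± 1.06 CPM (log2 fold change −1.79, adjusted p = 2.42e-05), and so did the inhibitor gene Serpine2, from 245 ± 9.56 to 51.7 ± 3.92 CPM (log2 fold change −2.24, adjusted p = 8.01e-06). Plaur, the receptor of urokinase, rose (log2 fold change 0.86, adjusted p = 0.00245).

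**Figure D3:**
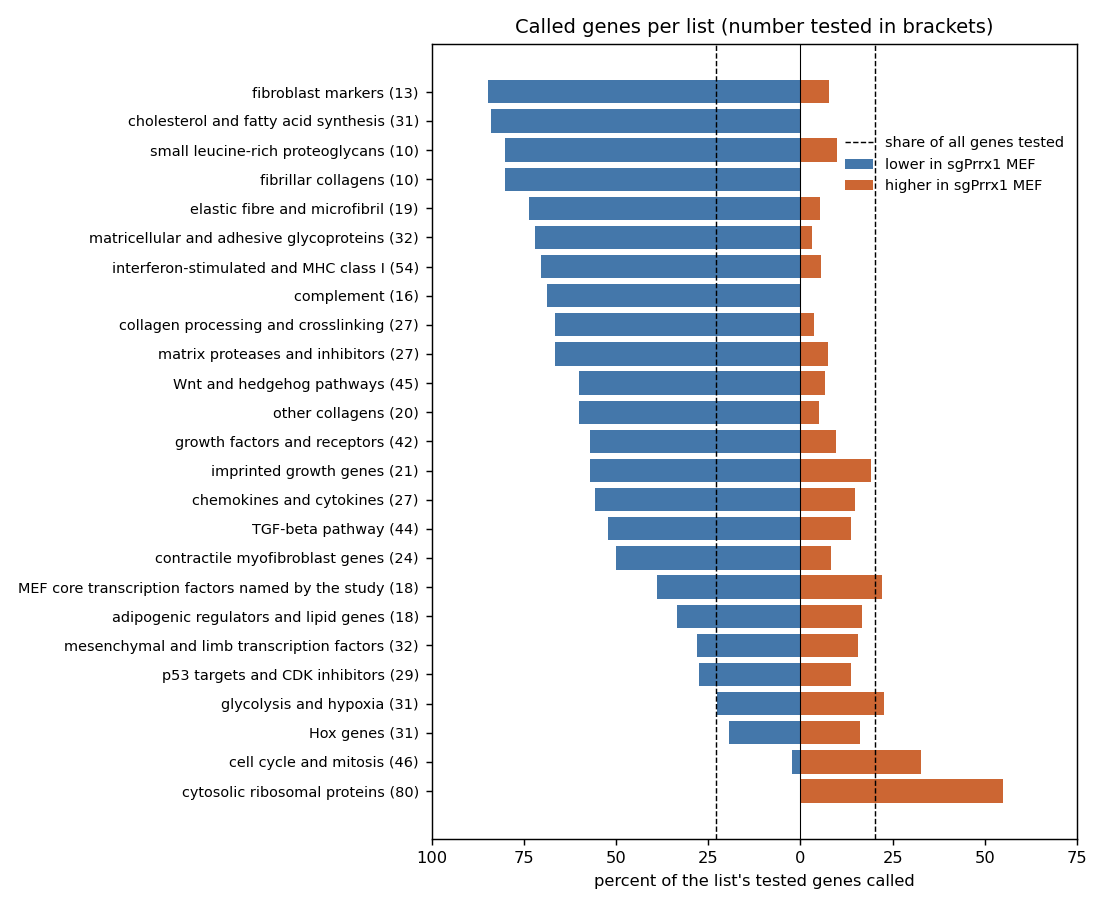
Percent of each gene list's tested genes called lower (blue, to the left) and higher (orange, to the right) in sgPrrx1 MEF, with the number tested in brackets. Dashed lines are the shares over all tested genes, 22.8% lower and 20.3% higher. Lists of matrix, complement, interferon and cholesterol genes reach far past the lower line, and cytosolic ribosomal protein genes, 55% higher, past the upper one.

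The contractile genes of the myofibroblast changed unequally, with 12 of 24 tested genes lower (50%) and 2 higher. Acta2, the smooth muscle actin, had 4381, 4238 and 3406 CPM in WT and 2214, 1949.9 and 1648 CPM in sgPrrx1 cultures (log2 fold change −1.05, SE 0.14, adjusted p = 0.00156). Tagln (transgelin) had 629, 689 and 740.4 and 544, 528 and 476 CPM (log2 fold change −0.41, SE 0.09, adjusted p = 0.00886). Both groups were separate for each gene, and the fall of Acta2 exceeded 2-fold while that of Tagln did not. Mylk, the kinase that activates myosin, fell from 17.1, 14.3 and 13.8 to 1.16, 1.08 and 1.05 CPM (log2 fold change −3.77, SE 0.13, adjusted p = 7.40e-06). The myosin light chain gene Myl9 fell from 677 ± 88.03 to 305 ± 59.1 CPM (log2 fold change −1.15, adjusted p = 0.00173) and Cnn1 (calponin) from 59.8 ± 4.84 to 27.9 ± 2.23 CPM (log2 fold change −1.10, adjusted p = 1.99e-04). Tpm2 (0.39) and Vcl (0.31), a tropomyosin and the adhesion protein vinculin, rose by less than 2-fold. Markers of mural cells, the contractile cells of vessel walls, moved with this list: 6 of 6 tested genes fell, 3 when genes with under 10 counts in any culture were left out, and the summed level of the 8 markers, most of it Acta2, was 3674 to 4698 CPM in WT and 1831 to 2439 CPM in sgPrrx1 cultures. Notch3 fell from 6.90 ± 1.03 to 0.261 ± 0.180 CPM (log2 fold change −4.70, adjusted p = 3.93e-04) and Mcam from 22.9 ± 1.01 to 8.64 ± 0.338 CPM (log2 fold change −1.41, adjusted p = 3.23e-05), while 4 of the 8 never reached 1 CPM. The part of such cells in the contractile falls was not tested.

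TGF-beta and BMP signalling genes were lower in 23 of 44 tested (52.3%) and higher in 6 (13.6%), or in 3 without sgPrrx1 replicate 2. Among ligands, Bmp6 fell from 12.7 ± 3.02 to 3.37 ± 0.209 CPM (log2 fold change −1.91, adjusted p = 3.93e-04). Among receptors, the TGF-beta receptor gene Tgfbr2 was lower, at 291, 304 and 268 CPM in WT and 204, 201 and 108 CPM in sgPrrx1 cultures (log2 fold change −0.75, SE 0.23, adjusted p = 0.0345), a call lost without WT replicate 1 or 2. The co-receptor gene Eng (endoglin) fell from 7.06 ± 1.32 to 1.76 ± 0.448 CPM (log2 fold change −2.004, adjusted p = 7.40e-04). Id2, a target of BMP signals, fell from 32.7 ± 2.35 to 12.1 ± 0.664 CPM (log2 fold change −1.43, adjusted p = 4.56e-05), whereas Smad2, a transducer of TGF-beta, rose from 63.8 ± 11.2 to 101 ± 4.33 CPM (log2 fold change 0.66, adjusted p = 0.00597).

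Growth factors and their receptors were lower in 24 of 42 tested genes (57.1%), 15 by at least 2-fold, and higher in 4 (9.52%). Igf1, the insulin-like growth factor, had 9.35, 10.1 and 12.3 CPM in WT and 0.222, 0.0833 and 0.315 CPM in sgPrrx1 cultures (log2 fold change −5.65, SE 0.34, adjusted p = 4.93e-05). The WT level of Igf1 was modest, and every sgPrrx1 culture was below 1 CPM. Gas6, the ligand of Axl, fell from 971, 968 and 802 to 436, 389 and 363 CPM (log2 fold change −1.21, SE 0.11, adjusted p = 2.47e-04). Fgf7, a fibroblast growth factor that acts on epithelium, fell from 56.8 ± 1.56 to 19.3 ± 0.660 CPM (log2 fold change −1.55, adjusted p = 1.32e-05). Among receptors, Egfr fell from 132 ± 10.4 to 54.9 ± 1.69 CPM (log2 fold change −1.27, adjusted p = 5.49e-05). Igfbp6, which binds IGF2, rose from 50.9 ± 9.92 to 107 ± 17.6 CPM (log2 fold change 1.07, adjusted p = 0.00288), and Hbegf, a ligand of EGFR, rose from 47.95 ± 4.602 to 89.04 ± 4.37 CPM (log2 fold change 0.89, adjusted p = 4.21e-04).

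In the Wnt and hedgehog pathways 27 of 45 tested genes were lower (60%), 17 by at least 2-fold, and 3 were higher, or 5 without WT replicate 3. Rspo3, a secreted enhancer of Wnt signals, had 13.04, 13.8 and 15.05 CPM in WT and 0.637, 0.749 and 0.957 CPM in sgPrrx1 cultures (log2 fold change −4.15, SE 0.16, adjusted p = 1.07e-05). Dkk3, a secreted member of the Dickkopf family, fell from 11.7 ± 0.942 to 1.40 ± 0.196 CPM (log2 fold change −3.07, adjusted p = 1.74e-05). Wnt5a, the ligand of the non-canonical branch, fell from 48.6 ± 6.995 to 22.9 ± 3.83 CPM (log2 fold change −1.08, adjusted p = 0.00175). The hedgehog effector gene Gli2 fell from 48.4 ± 2.83 to 25.5 ± 2.77 CPM (log2 fold change −0.93, adjusted p = 5.33e-04). Wnt7a, at 17.04 ± 2.30 CPM in WT, rose to 26.9 ± 3.16 CPM (log2 fold change 0.66, adjusted p = 0.00699).

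Chemokine and cytokine genes were lower in 15 of 27 tested (55.6%), 10 by at least 2-fold, and higher in 4 (14.8%). Cxcl12, the ligand of CXCR4 and a typical product of stromal cells, had 678, 649 and 751 CPM in WT and 278, 271 and 258 CPM in sgPrrx1 cultures (log2 fold change −1.37, SE 0.08, adjusted p = 3.72e-05). Ccl2, which recruits monocytes, fell from 59.2, 60.4 and 59.2 to 15.4, 15.2 and 13.1 CPM (log2 fold change −2.04, SE 0.08, adjusted p = 1.07e-05). Il1rl1, the gene of the IL-33 receptor, went the other way, from 155, 139 and 119 to 348, 506 and 323 CPM (log2 fold change 1.51, SE 0.19, adjusted p = 9.83e-04). No culture of one group reached into the range of the other in these genes. Has2, a hyaluronan synthase, fell from 40.7 ± 4.47 to 13.2 ± 0.220 CPM (log2 fold change −1.62, adjusted p = 4.55e-05).

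Complement genes were lower in 11 of 16 tested (68.8%), 10 by at least 2-fold, and 0 were higher by edgeR (also 0 at an unadjusted p below 0.05 and 0 by DESeq2). Their summed level was 89.8 to 90.1 CPM in WT and 25.1 to 25.7 CPM in sgPrrx1 cultures. C1ra, a protease of the C1 complex, had 17.6, 21.1 and 22.4 CPM in WT and 2.02, 1.90 and 2.05 CPM in sgPrrx1 cultures (log2 fold change −3.35, SE 0.12, adjusted p = 8.13e-06), and its partner C1s1 fell from 9.40 ± 1.705 to 0.346 ± 0.186 CPM (log2 fold change −4.75, adjusted p = 1.50e-04). C3, the central component, was low in WT, at 3.13 ± 0.205 CPM, and fell to 0.374 ± 0.0914 CPM (log2 fold change −3.06, adjusted p = 8.33e-05). Masp1, a protease of the lectin pathway, fell from 37.9 ± 0.152 to 14.96 ± 0.793 CPM (log2 fold change −1.34, adjusted p = 2.85e-05).

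Genes that respond to interferon formed a further group of falls. Cells that sense interferon activate a complex that includes STAT2 and IRF9, which binds a short element in the promoters of antiviral genes. Of 54 tested interferon-stimulated and MHC class I genes, 38 were lower (70.4%), 27 by at least 2-fold (50%), and 3 were higher (5.56%), with a median log2 fold change of −1.13. The falls lay among the antiviral genes, their regulators and genes of antigen processing, and no class I heavy chain gene was called lower. Irf7, the inducible regulator of the type I response, had 15.4, 16.3 and 16.8 CPM in WT and 1.59, 1.61 and 1.502 CPM in sgPrrx1 cultures (log2 fold change −3.36, SE 0.09, adjusted p = 4.25e-06). Bst2 (tetherin) fell from 59.97, 69.01 and 63.6 to 15.95, 15.1 and 14.2 CPM (log2 fold change −2.09, SE 0.08, adjusted p = 1.07e-05). Ifit3, an RNA-binding antiviral protein, fell from 18.4, 20.3 and 23.3 to 3.16, 3.15 and 3.91 CPM (log2 fold change −2.60, SE 0.14, adjusted p = 2.85e-05). In each of these genes every edited culture was below every WT culture. Usp18, which restrains the interferon receptor, fell 29.3-fold, from 9.54 ± 0.914 to 0.326 ± 0.191 CPM (adjusted p = 1.12e-04). Stat2 fell from 42.2 ± 2.56 to 15.8 ± 0.527 CPM (log2 fold change −1.42, adjusted p = 3.08e-05) and Irf9 from 21.2 ± 1.78 to 5.99 ± 0.453 CPM (log2 fold change −1.82, adjusted p = 3.53e-05). Oas2 and Oas1g, synthases that activate RNase L, had no count in any sgPrrx1 library, against WT means of 1.31 ± 0.205 and 1.53 ± 0.280 CPM, at least 32.97-fold and 38.6-fold lower by the floor of 3 counts. By contrast B2m, the light chain of class I molecules, had 475, 521 and 605 CPM in WT and 479, 496 and 547 CPM in sgPrrx1 cultures and was not called (adjusted p = 0.590). H2-D1 was not called either (log2 fold change 0.14, adjusted p = 0.250), and H2-K1 was higher (log2 fold change 0.30, adjusted p = 0.0156), a call lost without replicate 2 of either group. Class I genes are near-identical to each other, so reads can be shared between them.

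The promoters of this list were read for the core of the interferon-stimulated response element, that is GAAA and a second GAAA with any 2 bases between them, searched on both strands from 250 bases before to 50 bases after the RefSeq gene start. This element was chosen after the values had been seen. It occurred in 367 of the 10117 tested genes that had a promoter sequence (3.63%), in 18 of the 27 interferon-list genes called lower (66.7%) and in 4 of the 15 not called lower (26.7%). Parts of 6 promoters are shown, with each match in capitals and on the strand of the gene, from RefSeq on GRCm38.p6. Bst2, Ifit3, Oas1a and Stat2 fell, while H2-T23 and B2m carry the same letters and were not called.
Bst2 (chr8:71537557-71537626, minus strand): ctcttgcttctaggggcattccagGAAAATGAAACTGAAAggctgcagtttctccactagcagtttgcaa
Ifit3 (chr19:34583373-34583446, plus strand): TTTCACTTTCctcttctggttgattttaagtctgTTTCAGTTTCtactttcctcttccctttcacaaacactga
Oas1a (chr5:120907526-120907569, minus strand): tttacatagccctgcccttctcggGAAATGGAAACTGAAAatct
Stat2 (chr10:128270248-128270315, plus strand): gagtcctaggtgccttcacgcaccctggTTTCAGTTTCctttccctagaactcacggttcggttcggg
H2-T23 (chr17:36032786-36032855, minus strand): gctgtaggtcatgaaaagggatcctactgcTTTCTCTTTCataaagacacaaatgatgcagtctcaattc
B2m (chr2:122147518-122147587, plus strand): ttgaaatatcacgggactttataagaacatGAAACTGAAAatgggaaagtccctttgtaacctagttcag
The capitals in Bst2 and Oas1a cover overlapping matches, and a match describes the letters only. The homeodomain core TAATTA occurred in 311 of the 10117 promoters (3.07%), in 30 of 849 genes lower by at least 2-fold (3.53%) and in 6 of 148 genes higher by at least 2-fold (4.05%).

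Genes of cholesterol and fatty acid synthesis fell as a group, but by small amounts. Of 31 tested, 26 were lower (83.9%), 7 by at least 2-fold, and 0 were higher by edgeR (also 0 at an unadjusted p below 0.05 and 0 by DESeq2), with a median log2 fold change of −0.60. Insig1, the sterol-sensitive brake on SREBP, fell from 139.7, 117 and 108 to 47.7, 45.4 and 44.8 CPM (log2 fold change −1.40, SE 0.10, adjusted p = 1.17e-04). Hmgcs1, the synthase of an early step of the pathway, fell from 81.998, 91.2 and 99.4 to 53.7, 62.6 and 61.5 CPM (log2 fold change −0.62, SE 0.10, adjusted p = 0.00296). The groups did not overlap in either gene. Scd2, a desaturase of fatty acids, fell from 815 ± 5.94 to 376 ± 13.3 CPM (log2 fold change −1.12, adjusted p = 3.16e-05), and Fdft1, squalene synthase, from 119.6 ± 4.14 to 55.3 ± 3.17 CPM (log2 fold change −1.11, adjusted p = 6.21e-05). Srebf2, the regulator of the pathway, fell from 404 ± 26.3 to 307 ± 19.7 CPM (log2 fold change −0.40, adjusted p = 0.00675). Cyp51, an enzyme of the same pathway, was not called (log2 fold change −0.035, adjusted p = 0.681). A sterol element written TCACNCCAC, also chosen after the values had been seen, was found in the promoter of 1 of 17 called genes, Hmgcs1 (5.88%), against 1.40% of all promoters.

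**Figure D4:**
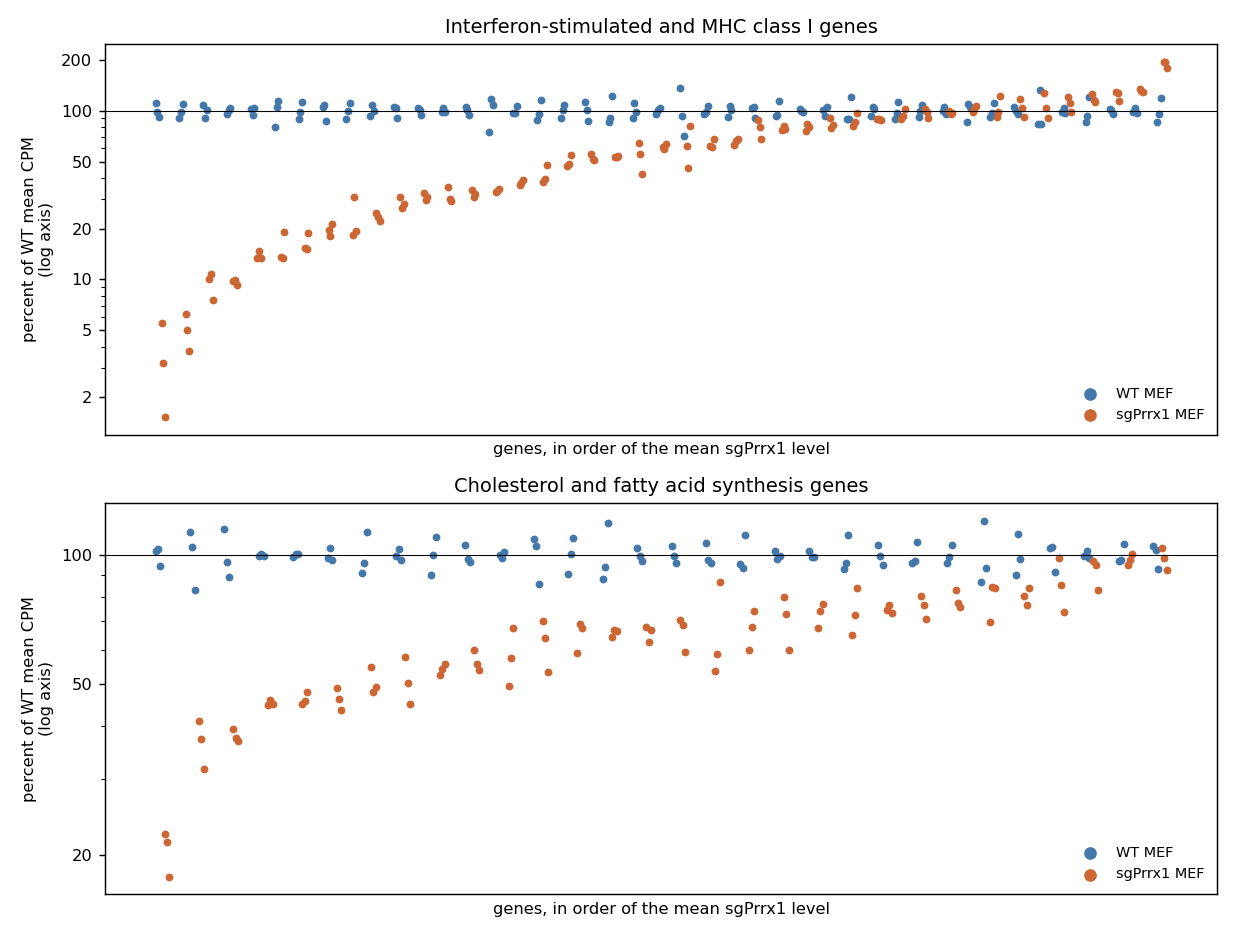
Level of each culture as percent of the gene's WT mean (log axis) for the 43 interferon and MHC class I genes (top) and the 30 cholesterol and fatty acid genes (bottom) with a WT mean of at least 5 CPM, ordered by the mean sgPrrx1 level. Blue points are WT and orange points sgPrrx1 cultures. Interferon genes range from Usp18, a 29.3-fold fall, to H2-Q6, which rises 1.90-fold, while most of the cholesterol genes lie below the WT level.

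Cell cycle genes rose more often than they fell. Of 46 tested, 15 were higher (32.6%) and 1 lower (2.17%), and the higher count was 9 without WT replicate 2. E2f2 was the member that rose past 2-fold, from 7.85, 7.79 and 9.52 to 16.5, 18.6 and 20.5 CPM (log2 fold change 1.14, SE 0.12, adjusted p = 5.29e-04). Mybl2, a transcription factor of S phase, rose from 78.8 ± 3.02 to 130.2 ± 0.0463 CPM (log2 fold change 0.72, adjusted p = 2.18e-04), and Ccnd1 (cyclin D1) from 639.7 ± 10.3 to 837 ± 49.4 CPM (log2 fold change 0.39, adjusted p = 0.00433). Of 29 p53 targets and CDK inhibitors, 8 were lower (27.6%), or 5 without any 1 of the sgPrrx1 cultures, and 4 were higher (13.8%), or 8 without WT replicate 3, against 22.8% and 20.3% of all genes. Perp, a p53 target and desmosome protein, rose from 6.36, 4.43 and 4.28 to 43.8, 41.5 and 34.8 CPM (log2 fold change 2.996, SE 0.18, adjusted p = 4.63e-05), and Cdkn2b, the CDK inhibitor p15, fell from 39.9 ± 1.91 to 22.2 ± 0.941 CPM (log2 fold change −0.85, adjusted p = 2.15e-04). Of 31 glycolysis and hypoxia genes, 7 were lower and 7 higher (22.6% each), near the shares of all genes, and the higher count was 4 without WT replicate 1 and 3 without WT replicate 2 or sgPrrx1 replicate 2. Adm (adrenomedullin), induced by hypoxia, fell from 10.03 ± 0.433 to 2.22 ± 0.414 CPM (log2 fold change −2.18, adjusted p = 8.77e-05), and Bnip3, a mitophagy receptor induced by hypoxia, rose from 7.57 ± 2.35 to 17.2 ± 2.41 CPM (log2 fold change 1.18, adjusted p = 0.00543).

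Of 80 tested cytosolic ribosomal protein genes, 44 were higher (55%) and 0 lower by edgeR (2 at an unadjusted p below 0.05, 2 by DESeq2), with a median log2 fold change of 0.36. Rps27a had 149.9, 189 and 268 CPM in WT and 398, 500.4 and 495 CPM in sgPrrx1 cultures (log2 fold change 1.20, SE 0.21, adjusted p = 0.00440), the largest called rise of the list. Rps2 rose from 1514 ± 367 to 2636 ± 155 CPM (log2 fold change 0.80, adjusted p = 0.00842) and Rps7 from 163 ± 34.4 to 326 ± 29.2 CPM (log2 fold change 0.996, adjusted p = 0.00246). These genes have many processed pseudogenes, so that reads can be shared. Summed over the list, the level was 62642 to 68258 CPM in WT and 69546 to 82727 CPM in sgPrrx1 cultures. Up to 2 members were called lower in 4 alternatives, among them leaving out WT replicate 3 or sgPrrx1 replicate 1.

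Imprinted genes, many of which govern fetal growth, were lower in 12 of 21 tested (57.1%), 9 by at least 2-fold, and higher in 4 (19.05%). Peg3, a paternally expressed zinc finger gene, had 83.7, 81.2 and 76.3 CPM in WT and 12.5, 11.9 and 12.96 CPM in sgPrrx1 cultures (log2 fold change −2.69, SE 0.07, adjusted p = 4.25e-06). The noncoding RNAs of the Dlk1-Dio3 cluster fell as well, Rian from 169 ± 29.2 to 60.1 ± 6.15 CPM (log2 fold change −1.49, adjusted p = 3.51e-04) and Meg3 from 30.8 ± 1.26 to 11.99 ± 1.04 CPM (log2 fold change −1.36, adjusted p = 6.28e-05). Of 18 adipogenic and lipid genes, 6 were lower (33.3%) and 3 higher (16.7%), against 22.8% and 20.3% of all genes. The higher count was 1 without WT replicate 1 or 2 or sgPrrx1 replicate 1 or 2. Lpl (lipoprotein lipase) fell from 75.4 ± 4.58 to 33.2 ± 0.788 CPM (log2 fold change −1.18, adjusted p = 4.56e-05), while Cebpa, a factor of fat cell differentiation, rose from 1.99 ± 0.410 to 4.88 ± 0.441 CPM (log2 fold change 1.30, adjusted p = 0.00145).

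Among the most changed genes, by a fixed rule of the 15 largest called changes in each direction with a mean of at least 10 CPM in either group, the falls included Smoc2, Col11a1, Aspn, Igf1, Thbs2, Rspo3, Mylk and Ogn. Of the others, Svep1, a large adhesion protein, fell from 65.7, 65.8 and 57.03 to 1.12, 1.53 and 1.19 CPM (log2 fold change −5.62, SE 0.15, adjusted p = 4.25e-06). Cyp1b1, a cytochrome P450, fell from 44.9, 44.7 and 47.4 to 3.10, 2.83 and 2.98 CPM (log2 fold change −3.94, SE 0.08, adjusted p = 3.49e-06). The spread within each group was small beside these differences. Tgfbi, a matrix protein induced by TGF-beta, fell from 10.995 ± 0.796 to 0.247 ± 0.147 CPM (log2 fold change −5.48, adjusted p = 4.44e-05). Npr3, the clearance receptor of natriuretic peptides, fell from 36.8 ± 4.44 to 2.59 ± 0.144 CPM (log2 fold change −3.83, adjusted p = 5.50e-06), Prelp, another leucine-rich proteoglycan, from 15.2 ± 1.19 to 0.999 ± 0.0469 CPM (log2 fold change −3.93, adjusted p = 4.25e-06), and AW551984 from 51.9 ± 9.96 to 1.60 ± 0.154 CPM (log2 fold change −5.02, adjusted p = 8.01e-06).

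Among the 15 largest rises, Fmnl1, a formin that assembles actin, rose from 2.71, 3.36 and 3.62 to 23.97, 27.7 and 26.3 CPM (log2 fold change 3.01, SE 0.13, adjusted p = 1.39e-05). Prl2c2 (proliferin) rose from 5.39, 3.95 and 3.62 to 28.8, 30.2 and 33.5 CPM (log2 fold change 2.84, SE 0.16, adjusted p = 3.91e-05), a gene with near-identical copies whose reads can be shared. Dynap had 84.6, 86.2 and 64.8 CPM in WT and 409, 367 and 328 CPM in sgPrrx1 cultures (log2 fold change 2.23, SE 0.14, adjusted p = 5.25e-05). In these 3 genes every edited culture was above every WT culture. Sema7a, a membrane-bound semaphorin, rose from 5.69 ± 0.533 to 21.2 ± 0.238 CPM (log2 fold change 1.90, adjusted p = 2.36e-05), Gfra2, a receptor of the GDNF family, from 10.7 ± 1.72 to 39.6 ± 1.63 CPM (log2 fold change 1.88, adjusted p = 6.28e-05), Fam181b from 2.68 ± 0.424 to 12.5 ± 0.512 CPM (log2 fold change 2.22, adjusted p = 4.56e-05) and Gm12669 from 2.25 ± 0.359 to 12.4 ± 1.698 CPM (log2 fold change 2.45, adjusted p = 7.35e-05). Hnrnpa1, an RNA-binding protein gene with many pseudogenes, had 92.6, 478 and 100.3 CPM in sgPrrx1 cultures (log2 fold change 1.86, adjusted p = 0.0475), and its log2 fold change was 0.66 without sgPrrx1 replicate 2.

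Another 5 of these 15 rises, Abcb1b, Slc25a40, Crot, Tmem243 and Sri, lie in one stretch of chromosome 5. Genes were therefore read in their order on GRCm38, an analysis chosen after the values were seen. A run of 31 tested genes from Cdk6 to Dmtf1 (chromosome 5, bases 3341004 to 9161806, 5.82 megabases) held 26 genes called higher, 1 called lower and 4 not called, where 20.3% of all tested genes were higher. In the run 16 genes rose by at least 2-fold, and the median log2 fold change was 1.14. Abcb1b, the efflux pump P-glycoprotein, had 68.5, 68.7 and 61.3 CPM in WT and 437, 444 and 417 CPM in sgPrrx1 cultures (log2 fold change 2.71, SE 0.07, adjusted p = 4.25e-06). Crot, a peroxisomal carnitine transferase, rose from 31.996, 34.6 and 33.8 to 136, 138 and 143 CPM (log2 fold change 2.06, SE 0.07, adjusted p = 6.71e-06). Sri (sorcin), a calcium-binding protein, rose from 60.9, 63.6 and 60.2 to 223, 226 and 233 CPM (log2 fold change 1.89, SE 0.06, adjusted p = 6.71e-06). All edited cultures had these genes at several times the WT level, with little spread. At the start of the run Cdk6 rose from 168 ± 19.3 to 261 ± 3.75 CPM (log2 fold change 0.64, adjusted p = 0.00175), Gatad1 from 59.9 ± 6.69 to 120.3 ± 12.5 CPM (log2 fold change 1.005, adjusted p = 6.51e-04) and Akap9, a scaffold of the centrosome, from 38.9 ± 3.26 to 85.9 ± 10.9 CPM (log2 fold change 1.14, adjusted p = 4.00e-04).

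Steap4 had no count in any WT library and a mean of 1.01 ± 0.179 CPM in sgPrrx1 libraries. Fzd1 was the gene called lower (log2 fold change −0.37, adjusted p = 0.0197), a call lost without sgPrrx1 replicate 2 or 3, and Cyp51, Rundc3b, Abcb1a and 1700109H08Rik were not called. The calls of Fam133b, Gm8773, Steap2 and Dbf4 were each lost on leaving out 1 culture or another, and the size of Slc25a40 was set by sgPrrx1 replicate 3 (15.1, 18.2 and 45.3 CPM, log2 fold change 2.28, or 1.63 without it). Cldn12, with 25.6, 29.97 and 70.3 CPM in WT and 129, 124 and 123 CPM in sgPrrx1 cultures, had a log2 fold change of 1.58, or 2.18 without WT replicate 3. The next 10 tested genes beyond Dmtf1 had 4 called higher and 3 called lower, with a median of −0.04. Over all of chromosome 5, with 831 tested genes, 309 were lower and 97 were higher, and its median log2 fold change, −0.19, was the lowest of any chromosome. Windows of 10 neighbouring genes numbered 12638 over the genome, and 21 of them had a median log2 fold change of at least 1. The highest, at 1.94, ran from Steap4 to Tmem243, and the highest outside the run, at 0.83, lay on chromosome 13. A copy number change of this region was not tested, and several of its genes overlap, so that counts without strand could be shared between them.

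**Figure D5:**
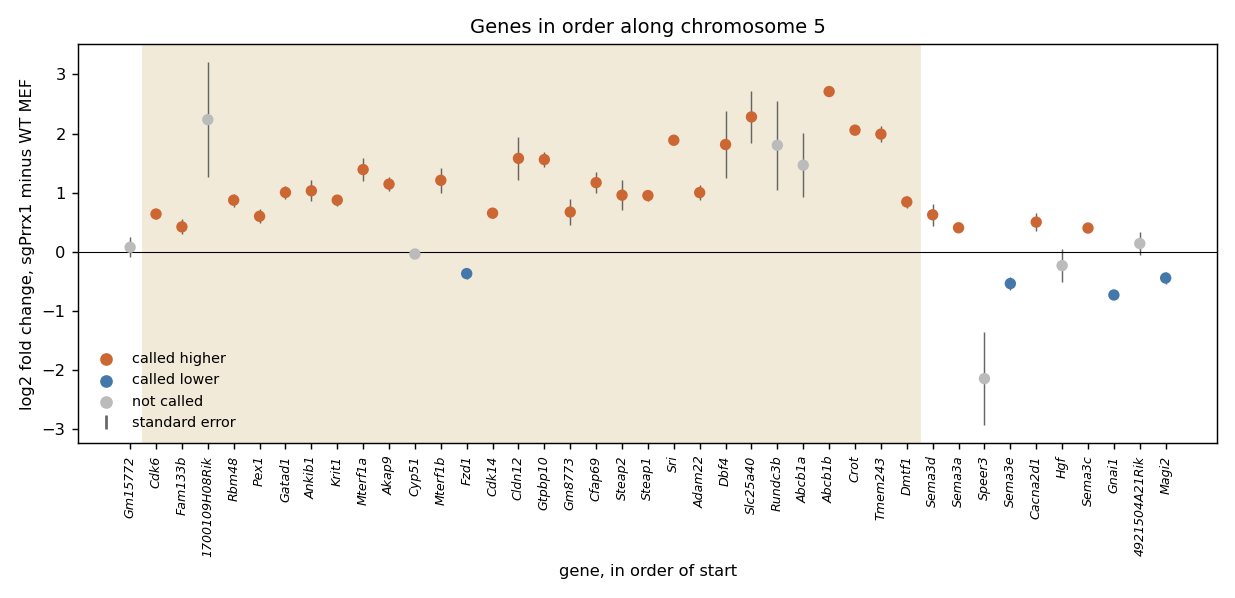
Log2 fold change (sgPrrx1 minus WT, point) with its standard error (line) for tested genes in their order along chromosome 5, the run from Cdk6 to Dmtf1 shaded. Orange is called higher, blue called lower and grey not called. Steap4, with no count in WT, is left out. Changes inside the run reach 2.71 at Abcb1b, while genes past Dmtf1 lie on both sides of 0.

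Other runs of neighbours were lower. The 4 lowest windows that did not overlap had medians of −2.72 to −2.07, and the lowest of them had 6 genes called lower and 1 higher. One on chromosome 13, from Ntrk2 to Ctla2a, had a median of −2.17 with 6 genes called lower. The window on chromosome 5 from Tpcn1 to Oas1a, which holds the Oas genes, had a median of −2.07 with 7 of 10 genes called lower, and a window on chromosome 11 that starts at Irgm1, with interferon-induced GTPases, had a median of −2.45 with 7 of 10 called lower. In all, 90 of the 12638 windows had a median of −1 or below.

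Markers of other cell types were counted to see what else the cultures could hold. Epithelial markers summed to 17.1 to 19.4 CPM in WT and 23.2 to 27.0 CPM in sgPrrx1 cultures, with 12 of 14 never reaching 1 CPM. Of 3 tested, Krt19 rose (log2 fold change 0.87, adjusted p = 4.21e-04) and 1 was lower, a count that was 0 without WT replicate 1 or 2 or sgPrrx1 replicate 2 or 3 and 2 without WT replicate 3. Endothelial markers summed to 4.41 to 4.91 CPM and 1.51 to 2.08 CPM, with 6 of 8 never at 1 CPM, and the 1 fall among 3 tested was that of Kdr, a VEGF receptor (log2 fold change −4.02, adjusted p = 3.41e-04). Leukocyte and macrophage markers summed to 15.3 to 18.1 CPM and 20.7 to 23.3 CPM, with 2 of 3 tested genes higher, or 1 without replicate 2 of either group. Skeletal muscle markers summed to 3.33 to 7.05 CPM and 1.47 to 1.78 CPM, with 2 of 3 tested genes lower and 1 higher, the latter lost in 9 of 14 alternatives. Cartilage and bone markers overlapped between the groups, at 292 to 326 CPM and 289 to 329.8 CPM, with 1 of 7 lower and 2 higher, or 1 higher without WT replicate 1 or 2 or sgPrrx1 replicate 2 or 3. Neural and glial markers summed to 280.3 to 359.7 CPM and 385 to 436 CPM, with 3 of 6 tested genes higher and 1 lower. Among them Tubb3, a neuronal tubulin also made by cultured cells, rose from 63.3 ± 5.56 to 160.4 ± 31.8 CPM (log2 fold change 1.34, adjusted p = 7.04e-04), Nes (nestin) rose from 69.8 ± 8.23 to 134 ± 14.5 CPM (log2 fold change 0.94, adjusted p = 9.60e-04) and Ncam1 fell from 166 ± 43.1 to 83.2 ± 10.7 CPM (log2 fold change −0.99, adjusted p = 0.00690).

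MEF of the Prrx1 mutant mice gave a second genotype against which the edited cells could be set. The mutant cells bear another strain label than the edited cells, so strain and derivation cannot be told apart from genotype here. Because both genotypes share the 3 WT libraries, each genotype's own values are given. The edited and mutant cells were compared directly, in a model of their 6 libraries only. CPM of the mutant cultures were scaled over all 9 MEF libraries. Of 13379 tested genes, 28.4% were lower and 27.8% higher in sgPrrx1 than in mutant cells. Prrx1 itself was at 25.1, 19.8 and 18.8 CPM in mutant cultures, below all edited cultures (difference 2.44 on the log2 scale, adjusted p = 6.79e-05). Prrx2, at 62.9, 75.1 and 81.8 CPM, did not differ past the test (difference 0.10 on the log2 scale, adjusted p = 0.482).

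Several genes of matrix and signalling differed between edited and mutant cells. Smoc2 was at 108, 122 and 128 CPM in mutant cultures, above WT (mutant against WT 2.001 on the log2 scale, adjusted p = 6.11e-06), and thus far above the edited cells (difference −9.73 on the log2 scale, adjusted p = 2.50e-06). Col11a1 had 69.2, 59.03 and 54.1 CPM in mutant cultures (mutant against WT 1.38 on the log2 scale, adjusted p = 1.06e-04; difference −8.13 on the log2 scale, adjusted p = 4.08e-06). Fgf7 had 199.8, 171 and 172 CPM in mutant cultures (mutant against WT 1.64 on the log2 scale, adjusted p = 1.53e-05; difference −3.20 on the log2 scale, adjusted p = 2.32e-06). In these genes mutant cells lay above WT and edited cells below it. They had been called lower than WT in the same sgPrrx1 libraries, so their differences from mutant cells are given as a description. Other genes stood on the same side of the shared WT libraries in both genotypes and did not differ past the direct test. Pdgfra was at 16.5, 19.2 and 19.2 CPM in mutant cultures (difference −0.20 on the log2 scale, adjusted p = 0.0877). Bgn was at 899, 970 and 952 CPM (difference −0.005, adjusted p = 0.950) and Perp at 37.2, 38.2 and 41.0 CPM (difference 0.08, adjusted p = 0.559). How many genes moved alike was not counted.

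The chains of type I collagen differed in opposite directions between edited and mutant cells. Col1a1 was higher in edited than in mutant cells (difference 0.80 on the log2 scale, adjusted p = 3.00e-04), as were Col3a1 (difference 0.91 on the log2 scale, adjusted p = 4.12e-05) and Postn (difference 3.05 on the log2 scale, adjusted p = 2.42e-06). Col1a2 was lower in edited cells (difference −0.30 on the log2 scale, adjusted p = 0.00948), a call lost with a replicate block (adjusted p = 0.0990). Fn1, at 4319.7, 5025 and 5555 CPM in mutant cultures (mutant against WT 0.51 on the log2 scale, adjusted p = 0.00874), was lower in edited cells (difference −0.98 on the log2 scale, adjusted p = 6.60e-04), and so was Tnc (difference −1.45 on the log2 scale, adjusted p = 1.54e-04). Acta2, at 1509.5, 2061 and 2417 CPM in mutant cultures, did not differ past the test (difference −0.010 on the log2 scale, adjusted p = 0.969). Tagln was higher in edited cells (difference 0.41 on the log2 scale, adjusted p = 0.0171), which was lost with a replicate block (adjusted p = 0.0824).

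Over all tested genes, 28.4% were lower and 27.8% higher in edited than in mutant cells, the background for the counts of that comparison here. By list, the cholesterol genes stood lower in edited than in mutant cells in 22 of 31 tested, with 1 higher. The matricellular genes were lower in 20 of 33 and higher in 9, and Wnt and hedgehog genes lower in 26 of 45 and higher in 9. Interferon and class I genes were divided, with 23 of 51 lower and 21 higher, and fibroblast markers were more often higher than lower, 7 against 2 of 13. Irf7 had 3.55, 4.57 and 4.84 CPM in mutant cultures (difference −1.43 on the log2 scale, adjusted p = 3.00e-04) and Bst2 66.2, 85.3 and 97.4 CPM (difference −2.43 on the log2 scale, adjusted p = 3.14e-05). Along chromosome 5, 20 of the 31 genes from Cdk6 to Dmtf1 were higher in edited than in mutant cells and 2 were lower, a description, since the run was found in the same sgPrrx1 libraries. Against WT, mutant cells had 8 of these 31 genes called higher and 2 called lower. The shares over all genes were not counted for mutant against WT, so these counts cannot be read as a trait of the run. Abcb1b was at 71.5, 71.95 and 73.7 CPM in mutant cultures (mutant against WT 0.09 on the log2 scale, adjusted p = 0.315). Crot was at 31.6, 30.5 and 30.8 CPM (mutant against WT −0.15 on the log2 scale, adjusted p = 0.140).

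Prrx1 was edited in 2 other cell types too, MMTV-CAF and wound-healing fibroblasts (3 WT and 3 sgPrrx1 libraries each), and 10 genes were compared across cell types by an interaction term, with p adjusted over all tested genes. Prrx1 fell further in wound-healing fibroblasts than in MEF, with log2 fold changes of −1.20 and −0.60 (adjusted p of the difference 0.00787), and further in MMTV-CAF, at −1.07 against −0.62 for MEF in that model (adjusted p = 0.0291). For Acta2, MEF and wound-healing fibroblasts had log2 fold changes of −1.05 and −1.14, a difference that did not pass the test (difference −0.09, SE 0.15, adjusted p = 0.645), whereas MMTV-CAF had −3.94 (difference −2.87, adjusted p = 5.63e-08). Fn1 fell in MEF and had a log2 fold change of 0.52 in wound-healing fibroblasts (difference 0.99, adjusted p = 5.46e-06). Tnc did not differ past the test between MEF and wound-healing fibroblasts, at −1.27 and −1.35 (difference −0.08, SE 0.09).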

How the data were processed

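Total RNA libraries (TruSeq RNA v2, paired-end reads) of 3 WT and 3 sgPrrx1 MEF cultures were analysed, with 15 further libraries used only for side comparisons. The authors trimmed reads with Trimmomatic, aligned them to mm10 with STAR and deposited whole-number counts per gene from HTSeq. Their methods name a batch correction with ComBat-seq after describing the human libraries, without saying whether it covered the mouse counts, so these may be adjusted. The strand setting is not given in the sources used here. Upper-case gene names were matched to RefSeq (GRCm38.p6), 12822 of 13372 tested genes.

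Counts were filtered with filterByExpr, scaled by TMM and tested with edgeR 4.0.16 (quasi-likelihood, no replicate block, the 6 libraries), with Benjamini-Hochberg adjustment over all tested genes. DESeq2 1.42.0, other scalings, filters and designs, and leaving out each culture were alternatives, 14 in all. The test was first tried on simulated data. Groups came from the sample labels. The genes named are the 15 largest called changes per direction (at least 10 CPM), the 10 most abundant called ones of at least 2-fold, list members and the checked genes, some of which are not reported here. The members and lists were chosen with earlier results of these data known. Replicates differed by more than counting noise, so no library was counted as a duplicate. The libraries held 72754401 or more gene counts each.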

Additional observations from a re-analysis of the deposited data

Results flagged for a closer look

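The effect of editing on 10 genes compared across cell types differed between MEF and the other fibroblasts in 16 of 20 comparisons, by an interaction term in edgeR with p adjusted over all tested genes. Over all tested genes, that term was called in 8323 of 14354 for wound-healing fibroblasts and in 8417 of 14551 for MMTV-CAF. Each value here is the log2 fold change in the other cell type minus that in MEF. In wound-healing fibroblasts the difference was −0.60 for Prrx1, −0.60 for Col1a1, −3.43 for Col1a2, −0.80 for Col3a1, 0.99 for Fn1 and −0.70 for Postn. Col1a2, at −0.73 in MEF and −4.16 in wound-healing fibroblasts, differed most. In MMTV-CAF the difference was −0.45 for Prrx1, 1.09 for Prrx2, −2.87 for Acta2, −7.99 for Tagln, −0.76 for Col1a1, −0.25 for Col1a2, −0.63 for Col3a1, −0.46 for Fn1, −1.40 for Tnc and −5.30 for Postn. The log2 fold change of Tagln was −0.43 in MEF and −8.42 in MMTV-CAF, and Prrx2 went from −0.40 in MEF to 0.70 in MMTV-CAF. Cell type, strain and culture cannot be told apart in these comparisons.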

How the results depend on the processing

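Of 244 genes tracked by name, 233 were called and 223 of these kept direction and call in every alternative that tested them: 204 in all 14, and 19 in the 13 other than a minimum of 10 counts in every culture, which removed them. Leaving out 1 culture gave 2155 to 3298 genes lower and 1586 to 3042 higher, and 1100 to 1225 lower and 155 to 380 higher by at least 2-fold. Genes higher numbered 1586 without WT replicate 2 and 1679 without sgPrrx1 replicate 2, and 380 were higher by at least 2-fold without WT replicate 3. Fewer samples then enter the fit. Of the 5764 calls, 3432 were kept in every such fit and 3104 in every alternative, and of the 1411 of at least 2-fold 1161 and 873, with genes not tested under an alternative counted as lost. Replicate numbers did not pair all the samples, and correlations of same-numbered deviations were 0.10, −0.05 and 0.20. WT replicates 1 and 3 were closest to the same number in sgPrrx1 MEF, and WT replicate 2 to sgPrrx1 replicate 1. Whether same-numbered libraries shared a batch was not tested. A replicate block gave 3416 genes lower and 3213 higher, 1163 and 218 by at least 2-fold. With that block the edited-minus-mutant differences of Tagln (0.41, adjusted p = 0.0824) and Col1a2 (−0.30, adjusted p = 0.0990) lost their calls, and that of Acta2, not called, was 0.0037. Further genes that were not called changed sign without 1 culture: B2m ranged from −0.149 to 0.027 and Cyp51 from −0.058 to 0.0087, both above 0 without WT replicate 3, and Uty from −0.065 to 0.196, with −0.0079 under upper-quartile scaling. The cause was not tested. Levels far below 1 CPM rest on few counts, such as 31 for Smoc2 over the 3 sgPrrx1 libraries, and such fold changes are the least certain. Low counts were more often even than odd, 56.3 to 60.1% in WT and 51.3 to 54.7% in sgPrrx1 libraries. Counts divided by 2, as an alternative, gave 3014 genes lower and 2687 higher.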
